A study of Caenorhabditis elegans with 11 samples.

Results

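The WT rescue line is a Caenorhabditis elegans strain that carries the daf-16 deletion allele mu86 together with the integrated transgene iqIs79. In iqIs79 the daf-16 promoter drives unaltered DAF-16 fused to GFP, and the plasmid pRF4 lies beside it as a marker that makes worms roll. The 3 RNA-seq libraries of this line were compared with the 2 libraries of N2, the wild-type laboratory strain, which has neither the deletion nor the transgene. These 5 of the study's 11 libraries were chosen by their group labels, not by any measured value. Each library was made from about 1000 whole worms on day 1 of adulthood, grown at 20 °C. Another 3 libraries, of a line called 2KR with the same deletion, the same marker and a transgene with lysine-to-arginine substitutions, entered the fit to share its estimate of the spread. Some of their levels are set beside those of the WT line and N2 further below. The WT line is 1 integrated insertion, so the deletion, the transgene, the marker and any other difference between the strains cannot be told apart.

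DAF-16 is the FOXO transcription factor at the end of the insulin signalling pathway. The insulin receptor DAF-2 acts through the kinase AKT, which phosphorylates DAF-16 and holds it in the cytoplasm of well-fed worms. When insulin signalling falls, DAF-16 enters the nucleus and switches on genes of stress resistance, immunity and fat metabolism, for which it is known in longevity studies of this species. ROL-6 is a cuticle collagen, and the dominant allele on pRF4 twists the cuticle into a helix.

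Library totals were 26154989 to 28207474 counts in the WT line and 21947014 and 22665307 in N2. Across genes, log2(CPM + 1) correlated at 0.995 to 0.999 over the 10 pairs of libraries, a description over genes that share their libraries. The column headers carry the repeat marks 1, 3 and 6-6 in the WT line and 1 and 6-6 in N2, and what a mark stands for is not given. Levels below are CPM, counts scaled to a common library size with the TMM method. Fold changes are of the WT line over N2 with the standard error (SE) of the fit, and a gene was called where the edgeR quasi-likelihood test gave a p under 0.05 after Benjamini-Hochberg adjustment. The labels speak of biological repeats without naming separate cultures, so the p-values measure the spread between these libraries.

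Of 14361 genes tested, 584 were called, or 4.07%. In the WT line 267 of them were higher (1.86% of the genes tested) and 317 were lower (2.21%). Of the called genes, 238 differed at least 2-fold, 80 of them higher in the WT line and 158 lower, and the median absolute log2 fold change of the 584 was 0.85. None of the 584 had overlapping libraries, so the same direction also held in the pair marked 1 and in the pair marked 6-6. Over all tested genes 39.6% did not overlap, and 51.6% had a positive fold change. The count rests on the N2 libraries: it was 101 without N2 replicate 1 and 163 without N2 replicate 2, and 464, 370 and 330 without WT replicates 1, 2 and 3. Of the 229 called genes whose values were drawn out for description, 43 stayed called without any 1 of the 5 libraries. Calls described as kept are among those 43. An unadjusted p under 0.05 in the edgeR test, counted below for some lists, was found for 2750 of the 14361 tested genes.

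The daf-16 gene (WBGene00000912) lies on the plus strand of chromosome I at 10750498 to 10776703 in WBcel235, and its transcript rose in the WT line. It stood at 399.9, 452 and 400.4 CPM in the WT line, against 159.6 and 145 CPM in N2. The 2 groups did not overlap, and every WT library lay far above the higher N2 library. This was a 2.74-fold difference (log2 1.45 ± 0.12 SE, edgeR adjusted p = 0.000129), and the log2 ratio, with 0.5 CPM added to each level, was 1.32 in the pair marked 1 and 1.46 in the pair marked 6-6. Both daf-16 and rol-6 were called with any 1 of the 5 libraries left out. Reads of the transgene and of sequence that remains at the mutant locus fall in the same count, which is therefore no test of the deletion.

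The marker gene rol-6 (WBGene00004397), on the plus strand of chromosome II at 8733050 to 8734239, was almost silent in N2 adults. Its counts were 1569, 1951 and 1897 in the WT line, against 2 and 3 in N2. In CPM these were 57.8, 73.1 and 66.6 in the WT line and 0.0935 and 0.134 in N2. The ratio of summed counts was 577 (95% exact Poisson interval 247 to 1777, counting error only), and the fit gave a log2 difference of 9.11 ± 0.30 SE (edgeR adjusted p = 1.47e-07). The non-coding RNA gene T01B7.11, which lies just upstream of rol-6 on the opposite strand, had 11, 8 and 15 counts in the WT line and 0 in both N2 libraries. That is at least 6.03-fold higher against a floor of 3 counts over the N2 group. Its call was lost without N2 replicate 1 (edgeR adjusted p = 0.105) or N2 replicate 2 (0.0795), and it was chosen after its values were seen.

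**Figure D1:**
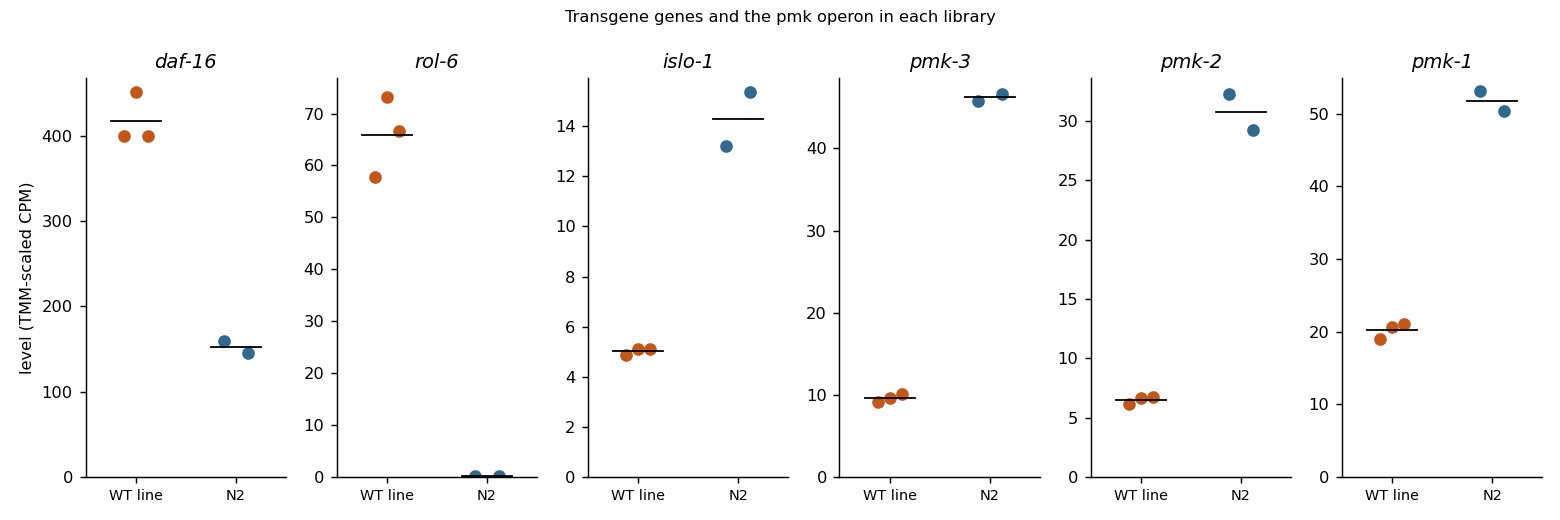
Level of daf-16, rol-6, islo-1, pmk-3, pmk-2 and pmk-1 in each library, in TMM-scaled CPM on linear axes that start at 0, with the WT line left of N2, a point per library and a line at the group mean. All 3 WT libraries lie above both N2 libraries for daf-16 and rol-6, and below both for islo-1 and the 3 pmk genes.

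The 12 lowest fold changes among called genes, of those whose log2 CPM averaged 2 or more, were led by Y106G6G.2, a protein-coding gene on chromosome I. It had 0.737, 0.974 and 0.456 CPM in the WT line, against 47.0 and 45.0 CPM in N2, a level 63.7-fold lower (log2 -5.99 ± 0.19 SE, edgeR adjusted p = 1.47e-07). T20F10.5 had 0.922, 1.24 and 0.913 CPM in the WT line and 14.3 and 13.0 CPM in N2 (log2 -3.73 ± 0.20 SE, edgeR adjusted p = 4.58e-06). These are near losses of a transcript that N2 expressed at a clear level. The gene WBGene00014774, which has no name in the files, fell 7.85-fold, and bgal-2, a member of the beta-galactosidase family, fell 7.47-fold. pll-1, which encodes a phospholipase C-like protein, had 2.14, 2.14 and 2.32 CPM in the WT line and 12.3 and 10.0 CPM in N2 (log2 -2.34 ± 0.19 SE, edgeR adjusted p = 0.000126). Y69A2AR.31 fell 3.74-fold and R10E4.6 fell 3.73-fold. The 12 also held fbxa-192, pmk-2, pmk-3, fmo-2 and fat-7, which are described with their families. Of these 12 calls, 10 were kept, and those of fmo-2 and fat-7 were not.

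The 12 highest were led by rol-6. Y73F8A.5 had 19.2, 12.9 and 17.4 CPM in the WT line, against 0.748 and 0.580 CPM in N2, a log2 fold change of 4.63 ± 0.26 SE (24.7-fold, edgeR adjusted p = 5.48e-06). D1086.1 had 4.98, 6.30 and 6.74 CPM in the WT line, against 0.421 and 0.401 CPM in N2 (log2 3.85 ± 0.33 SE, edgeR adjusted p = 0.000154). The smallest p of the whole comparison belonged to Y69A2AR.1, whose libraries barely varied within a group. It had 90.7, 91.2 and 88.0 CPM in the WT line and 18.9 and 20.4 CPM in N2 (log2 2.19 ± 0.06 SE, edgeR adjusted p = 8.52e-08). haf-6, an ABC transporter needed for efficient RNA interference, had 38.9, 35.7 and 36.4 CPM in the WT line and 6.82 and 7.22 CPM in N2 (5.26-fold, edgeR adjusted p = 3.49e-07). ram-2, named for malformed male rays, had 6.82, 15.2 and 9.16 CPM in the WT line and 1.78 and 1.96 CPM in N2. Its call was lost without N2 replicate 1 (edgeR adjusted p = 0.0705). The other 6 of the 12 were collagens of the col family, of which col-125 was kept.

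**Figure D2:**
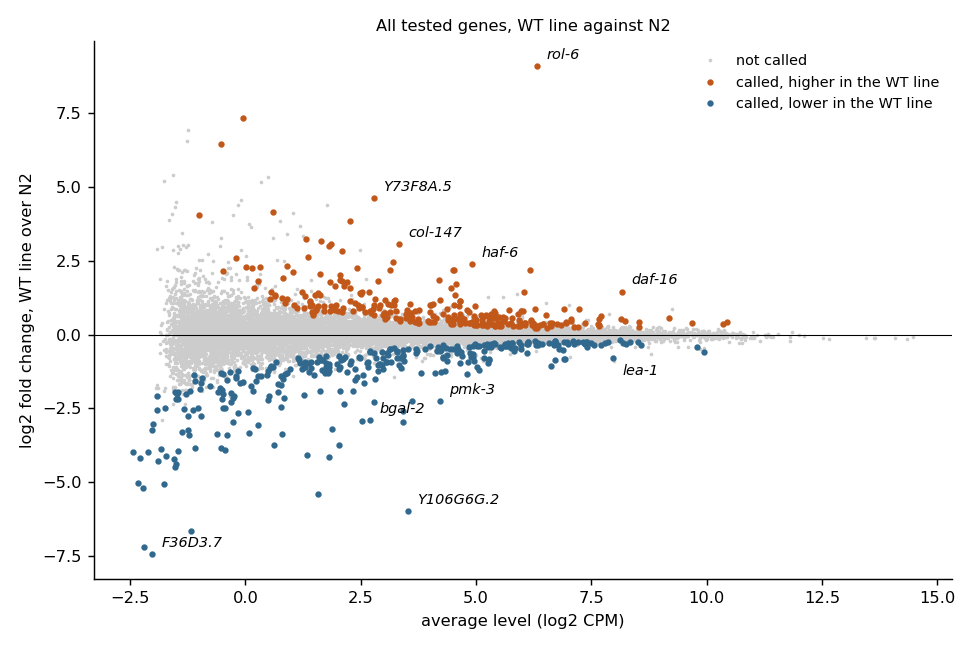
Log2 fold change of the WT line over N2 against average level (log2 CPM) for the 14361 tested genes, a point per gene, with the 267 called higher, the 317 called lower and the others in separate colours. Large differences lie mostly below zero, where 158 of the 238 called genes with at least a 2-fold difference are found.

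A few genes had reads in 1 strain and next to none in the other. They were chosen after their values were seen. The chemoreceptor gene str-77 had 0, 1 and 0 counts in the WT line and 34 and 41 in N2, a summed ratio 141-fold lower (95% exact Poisson interval 24.5 to 5636). This call was kept. The pseudogenes F36D3.7 and B0524.4 had 0 counts in all 3 WT libraries, against 36 and 30 counts summed over N2. Against a floor of 3 counts over the WT group these are at least 22.5-fold and 18.8-fold lower. In the other direction C18H7.1 had 62 counts summed over the WT line and 0 over N2, at least 11.0-fold higher. The call of C18H7.1 was lost without N2 replicate 1 (edgeR adjusted p = 0.232), N2 replicate 2 (0.173) or WT replicate 3 (0.0747). That of F36D3.7 was lost without N2 replicate 1 (0.116) or N2 replicate 2 (0.0653), and that of B0524.4 without N2 replicate 2 (0.0653).

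The components of the insulin pathway held 1 call. Of 26 tested members, which include the receptor, the kinases and their regulators, 1 was called against a background of 4.07%, and the list's median log2 fold change was -0.02, against 0.01 over all tested genes. The called member was ftt-2, which encodes an adaptor that binds phosphorylated DAF-16 and keeps it out of the nucleus. It had 328, 356 and 325 CPM in the WT line, against 246 and 239 CPM in N2 (log2 0.47 ± 0.07 SE, edgeR adjusted p = 0.00425). The call was lost without N2 replicate 1 (edgeR adjusted p = 0.0520) or N2 replicate 2 (0.0640). Of 20 tested insulin-like peptides, the ligands of DAF-2, edgeR called none (6 at an unadjusted p under 0.05, none called by DESeq2), and 18 had a positive fold change, with a list median of 0.53. The summed level of the family was 20.0 to 22.8 CPM in the WT line and 15.8 and 16.7 CPM in N2. ins-33 had 0.369, 0.825 and 0.316 CPM in the WT line and 0.0935 and 0.134 CPM in N2 (edgeR adjusted p = 0.129).

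Genes known to be activated by DAF-16 were called in both directions in the line that carried more daf-16 transcript. Of 31 tested members of that list 6 were called (19.4%, against 4.07% of all tested genes), 1 higher and 5 lower, and the median log2 fold change was -0.07. The split was 5 higher and 5 lower with the replicate number, or the repeat mark, as a block. The median turned positive, 0.24, without N2 replicate 1. The 5 that fell included lea-1, whose product belongs to the late embryogenesis abundant proteins that protect against drying and osmotic stress. It had 224, 208 and 212 CPM in the WT line, against 391 and 360.0 CPM in N2 (log2 -0.81 ± 0.06 SE, edgeR adjusted p = 5.6e-05). The small heat shock gene sip-1 had 873, 856 and 942 CPM in the WT line, against 1322 and 1331 CPM in N2 (log2 -0.58 ± 0.06 SE, edgeR adjusted p = 0.000619). The thaumatin family gene thn-2 had 25.7, 28.9 and 26.8 CPM in the WT line, against 46.7 and 44.4 CPM in N2 (log2 -0.75 ± 0.08 SE, edgeR adjusted p = 0.00107). These 3 calls were kept, and none of the 3 genes had overlapping libraries.

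The other called members of that list were less stable. The desaturase gene fat-5 fell by 0.61 and K07B1.4 fell by 0.43 on the log2 scale (edgeR adjusted p = 0.0302 and 0.0259). The lysozyme gene lys-7 rose, with 113, 184 and 139 CPM in the WT line, against 82.3 and 77.4 CPM in N2 (log2 0.87 ± 0.16 SE, edgeR adjusted p = 0.0151). Without N2 replicate 1 these 3 calls were lost (edgeR adjusted p = 0.117 to 0.151), and likewise without N2 replicate 2 (0.138 to 0.242). fat-5 also lost its call without any WT library (0.0628 to 0.0727), and K07B1.4 without WT replicate 1 (0.0640) or 3 (0.0699).

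Classical targets were among the 25 that did not pass. The superoxide dismutase gene sod-3 had 4.42, 4.01 and 4.60 CPM in the WT line, against 3.22 and 2.94 CPM in N2 (log2 0.49 ± 0.18 SE, edgeR adjusted p = 0.170). hsp-12.6, which encodes a small heat shock protein, had 0.664, 0.675 and 1.05 CPM in the WT line, against 0.467 and 0.312 CPM in N2 (edgeR adjusted p = 0.162). Both were higher in every WT library than in either N2 library, by amounts the test did not separate from the spread. The metallothionein gene mtl-1 overlapped, at 18.9, 20.0 and 22.3 CPM in the WT line and 32.3 and 16.4 CPM in N2 (edgeR adjusted p = 0.644). dod-3 also overlapped, at 15.4, 9.74 and 14.1 CPM in the WT line and 9.77 and 10.7 CPM in N2 (edgeR adjusted p = 0.321).

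Of 15 tested genes known to be repressed by DAF-16, 4 were called (26.7%, against 4.07% of all tested genes), 2 in each direction, with a list median of 0.22. dod-24 had 18.2, 24.3 and 20.6 CPM in the WT line, against 10.3 and 8.52 CPM in N2 (log2 1.16 ± 0.18 SE, edgeR adjusted p = 0.00665). sams-1, which encodes S-adenosylmethionine synthetase, averaged 272 ± 38.0 CPM in the WT line (SD, n = 3), against 187 ± 13.7 CPM in N2 (SD, n = 2), without overlap (log2 0.54 ± 0.12 SE, edgeR adjusted p = 0.0290). In the opposite direction dod-23 had 60.6, 74.0 and 72.7 CPM in the WT line, against 146 and 139.9 CPM in N2 (log2 -1.05 ± 0.15 SE, edgeR adjusted p = 0.00439). pes-2.1 had 4.61, 6.22 and 4.84 CPM in the WT line, against 10.6 and 10.4 CPM in N2 (edgeR adjusted p = 0.00481). Its neighbour pes-2.2, no list member, had nearly equal counts in each library, and the reads of the pair may not be separable. All 4 calls were lost without N2 replicate 1 (edgeR adjusted p = 0.0687 to 0.283), and those of dod-24 (0.0943) and sams-1 (0.111) without N2 replicate 2. dod-22 (log2 0.75 ± 0.20 SE) and F55G11.2 (0.87 ± 0.22 SE) missed the threshold at edgeR adjusted p = 0.0744 and 0.0519.

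**Figure D3:**
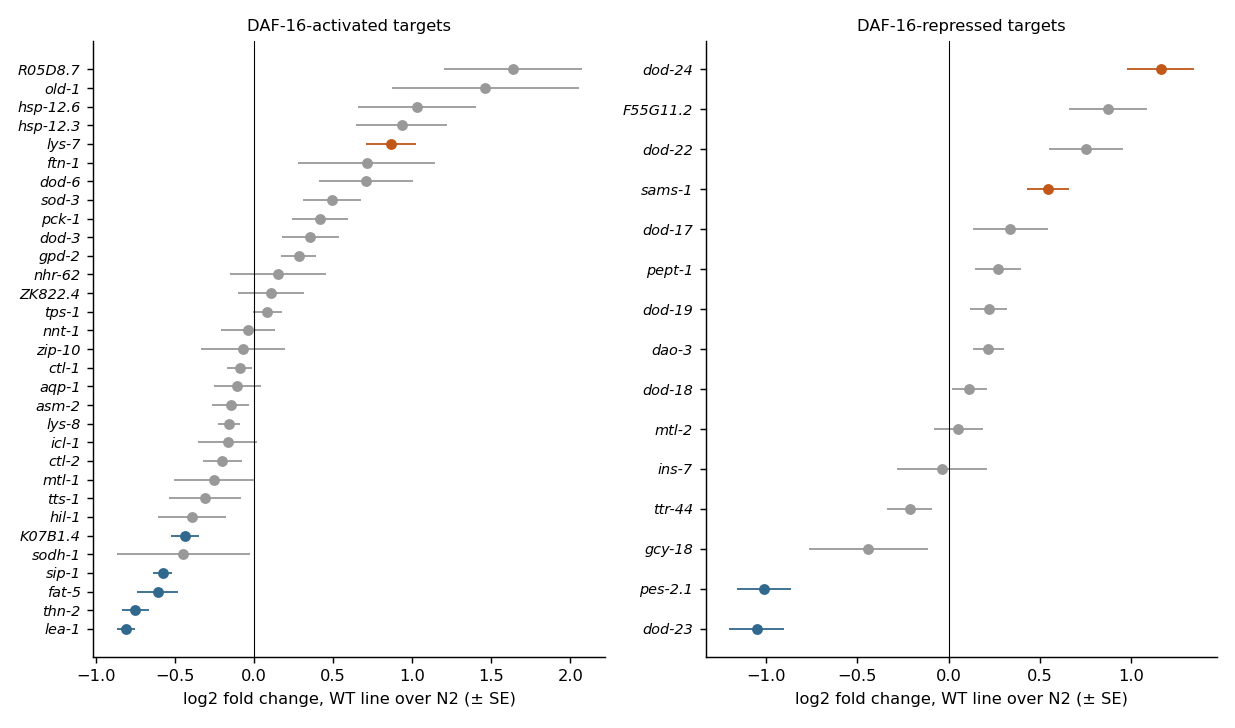
Log2 fold change of the WT line over N2 with its SE for the tested members of the DAF-16-activated and DAF-16-repressed lists, a row per gene, with members called higher in orange, called lower in blue and not called in grey. Of the activated list 5 called members lie below zero and 1 above, and of the repressed list 2 lie on each side.

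Cuticle collagens were the family with the most genes higher in the WT line. The col genes encode the collagens that epidermal cells secrete to build the cuticle at each moult and in adults. Of 111 tested members 22 were called, or 19.8%, against 4.07% of all tested genes. Of these, 20 were higher in the WT line and 2 were lower, and 80 of the 111 had a positive fold change (list median 0.65, against 0.01 over all tested genes). The number called higher was 13 with the 2KR libraries left out, 28 in DESeq2, 35 without a filter on low counts, and 53 and 34 with the replicate number and the repeat mark as a block. It was 1 when either N2 library was left out. col-125 had 4.94, 6.15 and 4.11 CPM in the WT line, against 0.748 and 0.669 CPM in N2 (log2 2.83 ± 0.35 SE, edgeR adjusted p = 0.00181), and it was the 1 collagen call that was kept. col-147 had 11.1, 15.1 and 5.65 CPM in the WT line, against 1.64 and 0.892 CPM in N2 (log2 3.07 ± 0.47 SE, edgeR adjusted p = 0.0055).

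Within the WT line these collagens varied together. Over the 20 members called higher, the median log2 level relative to the N2 mean was 1.50 in WT replicate 1, 2.18 in replicate 2 and 1.23 in replicate 3. Replicate 2 was the highest of the 3 for 14 of the 20 genes, replicate 1 for 6 and replicate 3 for 0. col-167 shows the pattern, with 7.11, 14.9 and 6.77 CPM in the WT line, against 2.20 and 2.05 CPM in N2 (log2 2.17 ± 0.36 SE, edgeR adjusted p = 0.00845). col-12 had another order, with 10.1, 7.76 and 2.70 CPM in the WT line, against 1.54 and 1.34 CPM in N2 (edgeR adjusted p = 0.0318). Without N2 replicate 1, 21 of the 22 calls were lost (edgeR adjusted p = 0.0687 to 0.345), and without N2 replicate 2 also 21 (0.0797 to 0.242). Leaving out WT replicate 1, 2 or 3 cost 4, 6 and 2 of them, while the list's median stayed between 0.52 and 0.72 over these 5 fits.

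Some of the collagens are near-copies whose reads may not be separable. col-3 and its neighbour col-117 had nearly the same values, 15.8, 39.4 and 18.9 CPM against 15.5, 38.9 and 18.6 CPM in the WT line, so they count as uncertain. The same holds for col-10 with col-144 and for col-12 with col-13. The family's summed level did not move with these calls: the total of all its members was 19529 to 21206 CPM in the WT line and 21082 to 22186 CPM in N2. The smallest fold change of the 20 called higher was that of col-124, with 1412, 1293 and 1232 CPM in the WT line, against 1032 and 1034 CPM in N2 (log2 0.35 ± 0.07 SE, edgeR adjusted p = 0.0269). The 2 that fell were col-135 (log2 -0.86 ± 0.16 SE, edgeR adjusted p = 0.0151) and col-158 (-1.03 ± 0.24 SE, edgeR adjusted p = 0.0408).

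The collagens that work with ROL-6 in body shape gave large values with wide errors. Of 20 tested members of that list, rol-6 itself was the 1 call (5%, near the 4.07% of all tested genes). A positive fold change was found for 17, and the median was 0.63. Other settings called more of them, 5 in DESeq2 or without a filter on low counts and 3 with the 2KR libraries left out, all higher. sqt-1, which interacts genetically with rol-6, had 0.147, 1.12 and 1.37 CPM in the WT line, against 0.140 and 0.134 CPM in N2 (log2 2.65 ± 1.15 SE, edgeR adjusted p = 0.245). Here WT replicate 1 sat at the N2 level and the other 2 WT libraries far above it. dpy-13, a collagen whose loss makes worms short, had 0.553, 3.30 and 2.49 CPM in the WT line, against 0.234 and 0.0892 CPM in N2 (log2 3.69 ± 1.10 SE, edgeR adjusted p = 0.0983). dpy-4 and dpy-5 behaved likewise (3.35 ± 0.97 SE and 3.40 ± 0.98 SE, edgeR adjusted p = 0.0909 and 0.0915), with WT replicate 1 the lowest of the 3. Without WT replicate 1, 3 members of the list were called. sqt-3, another collagen gene, overlapped at 18.1, 18.4 and 17.2 CPM in the WT line and 17.8 and 11.0 CPM in N2.

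Other lists of the cuticle and its damage responses are given beside the 4.07% of all tested genes that were called. Of 20 tested genes of collagen processing and moulting edgeR called none (4 at an unadjusted p under 0.05, 1 called by DESeq2), and 16 were negative (median -0.13). The nearest was the fibrillin-like gene fbn-1, with 6.78, 6.41 and 5.02 CPM in the WT line, against 12.6 and 7.76 CPM in N2 (edgeR adjusted p = 0.0733). Of 29 tested epidermal antimicrobial peptide genes, which wounding and infection induce, 1 was called (3.45%, near that share). This was fip-6, at 1.51, 2.36 and 2.49 CPM in the WT line and 0.935 and 0.758 CPM in N2 (edgeR adjusted p = 0.0401). It lost its call without N2 replicate 1 (edgeR adjusted p = 0.237) or 2 (0.253), and also without WT replicate 2 (0.0978) or 3 (0.112). The peptide gene nlp-29, the usual reporter of epidermal damage, had 11.8, 5.21 and 11.4 CPM in the WT line and 14.3 and 12.3 CPM in N2 (log2 -0.49 ± 0.30 SE, edgeR adjusted p = 0.415).

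The osmolyte response list, whose genes respond when the cuticle is damaged, held 2 calls among 22 tested members (9.09%, against 4.07%), both lower in the WT line. These were lea-1, above, and hmit-1.1, a proton-coupled myo-inositol transporter. hmit-1.1 had 4.98, 3.22 and 4.28 CPM in the WT line, against 13.2 and 9.68 CPM in N2 (log2 -1.45 ± 0.21 SE, edgeR adjusted p = 0.00407), and lost its call without N2 replicate 1 (0.0834). The glycerol synthesis gene gpdh-1 had 4.64, 1.16 and 5.20 CPM in the WT line and 5.84 and 6.69 CPM in N2 (edgeR adjusted p = 0.381). Of 17 tested epidermis marker genes, rol-6 was the 1 call (5.88%, near the 4.07% of all tested genes). The summed level of these markers, rol-6 included, was 949 to 975 CPM in the WT line and 846 and 848 CPM in N2. In these whole-worm libraries, more cells of a type and more RNA per cell cannot be told apart, and the part of epidermal content in the collagen values was not tested.

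Among immune genes the calls with the smallest p lay in 1 operon on chromosome IV (8139219 to 8151266), which holds the p38-type kinase genes pmk-3, pmk-2 and pmk-1. PMK-1 is the kinase of the main antibacterial pathway of the intestine. pmk-3 had 9.14, 9.63 and 10.0 CPM in the WT line, against 45.8 and 46.6 CPM in N2 (log2 -2.27 ± 0.09 SE, 4.81-fold lower, edgeR adjusted p = 5.29e-07). pmk-2 had 6.16, 6.63 and 6.70 CPM in the WT line, against 32.3 and 29.2 CPM in N2 (log2 -2.24 ± 0.09 SE, 4.73-fold lower, edgeR adjusted p = 6.26e-07). pmk-1 had 19.0, 20.6 and 21.1 CPM in the WT line, against 53.1 and 50.3 CPM in N2 (log2 -1.35 ± 0.08 SE, 2.55-fold lower, edgeR adjusted p = 5.48e-06). The libraries of each group lay close together for all 3 genes, and the 3 calls were kept. The adjoining gene islo-1, on the same strand, fell by 1.51 ± 0.14 SE on the log2 scale (edgeR adjusted p = 0.000244) and was kept as well.

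The list of PMK-1 pathway genes and other immune effectors held these 3 kinases and 4 more calls among 31 tested members. In all 6 were lower and 1, dod-24, was higher (22.6% called, against 4.07%), and 23 of the 31 were negative (median -0.17). The effectors that fell were the C-type lectin clec-85, with 16.1, 18.6 and 20.0 CPM in the WT line and 31.0 and 28.6 CPM in N2 (edgeR adjusted p = 0.00608), with clec-67 (log2 -1.04 ± 0.19 SE, edgeR adjusted p = 0.0153) and C32H11.4 (-0.90 ± 0.18 SE, 0.0211). These differences were smaller than those of the kinase genes. The 4 calls outside the operon were lost without N2 replicate 1 (edgeR adjusted p = 0.0687 to 0.191), and all but clec-85 also without N2 replicate 2 (0.0871 to 0.158). C32H11.4 was lost without WT replicate 1 (0.0529) or 2 (0.0601) too.

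Of 96 tested C-type lectins, secreted sugar-binding proteins, 10 were called (10.4%, against 4.07%), 2 higher and 8 lower, while the list's median was 0.03. clec-209 had 84.0, 105 and 91.5 CPM in the WT line, against 158 and 176 CPM in N2 (log2 -0.84 ± 0.10 SE, edgeR adjusted p = 0.00149). clec-186 had 28.1, 25.4 and 30.4 CPM in the WT line, against 49.2 and 49.1 CPM in N2 (log2 -0.81 ± 0.09 SE, edgeR adjusted p = 0.000947). clec-44, annotated as a pseudogene, had 2, 1 and 1 counts in the WT line and 25 and 15 in N2. Its summed ratio was 18.8-fold lower (95% exact Poisson interval 6.79 to 72.3). These 3 lectin calls were kept. Among the 2 that rose, clec-170 had 4.13, 5.25 and 3.69 CPM in the WT line, against 1.17 and 1.29 CPM in N2 (edgeR adjusted p = 0.00336). Without N2 replicate 1, 7 of the 10 calls were lost (edgeR adjusted p = 0.0726 to 0.409), clec-170 among them, and 4 without N2 replicate 2 (0.0871 to 0.134). Leaving out WT replicate 1, 2 or 3 cost 1, 1 and 2 calls (0.0607 to 0.111).

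Lysozymes went both ways. Of 13 tested members 4 were called (30.8%, against 4.07%), of which lys-7 and lys-4 rose and the invertebrate-type genes ilys-2 and ilys-3 fell. lys-4 had 24.2, 41.3 and 24.7 CPM in the WT line, against 14.4 and 9.54 CPM in N2 (log2 1.33 ± 0.28 SE, edgeR adjusted p = 0.0268). ilys-3 had 0.147, 0.0750 and 0.140 CPM in the WT line, against 1.87 and 0.535 CPM in N2 (edgeR adjusted p = 0.0155), and ilys-2 had 0.258, 0 and 0.0351 CPM in the WT line, against 2.15 and 0.758 CPM in N2 (edgeR adjusted p = 0.0228). For both ilys genes the 2 N2 libraries lay far apart. All 4 lysozyme calls were lost without N2 replicate 1 (edgeR adjusted p = 0.105 to 0.304), and those of lys-4 and lys-7 without N2 replicate 2 (0.138 to 0.218). The ilys genes also lost theirs without WT replicate 2 or 3 (0.0507 to 0.0774). Of the other secreted defence families, the saposin-like spp-2 rose 1.62-fold (edgeR adjusted p = 0.00601), a call lost without N2 replicate 1 (0.0895) or 2 (0.0797).

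**Figure D4:**
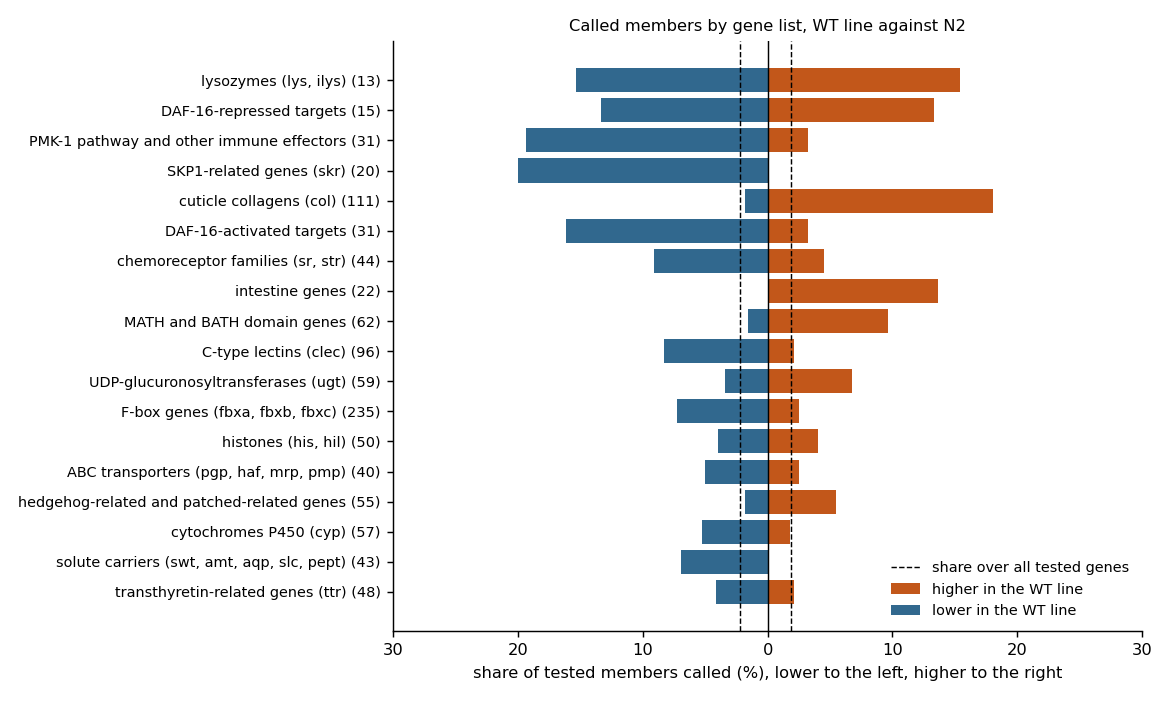
Share of the tested members of gene lists that were called higher (right) or lower (left) in the WT line, in percent. Lists were chosen by their numbers of tested and of called members, so lists with few or no calls are not shown, however large. Numbers in brackets give the tested members, and dashed lines mark the shares over all tested genes, 1.86% higher and 2.21% lower. Cuticle collagens extend mainly to the right with 20 of 22 calls, while the immune effectors, the C-type lectins and the F-box genes extend mainly to the left.

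Components of ubiquitin ligases formed the next large group of calls. F-box proteins, BATH and MATH domain proteins and SKP1-related proteins bring substrates to cullin ligases, and their families are expanded in this species. Of 235 tested F-box genes 23 were called (9.79%, against 4.07%), 6 higher and 17 lower, with 141 negative fold changes and a median of -0.12. fbxa-192 had 4.13, 3.07 and 5.05 CPM in the WT line, against 24.8 and 24.4 CPM in N2 (log2 -2.58 ± 0.16 SE, edgeR adjusted p = 1.32e-05). Its neighbour fbxa-191, annotated as a pseudogene, had 1.18, 0.937 and 1.23 CPM in the WT line, against 4.63 and 4.55 CPM in N2 (log2 -2.03 ± 0.19 SE, edgeR adjusted p = 0.000269). fbxc-51 fell 2.59-fold (edgeR adjusted p = 0.00194). fbxc-43 rose, with 6.23, 7.46 and 6.11 CPM in the WT line, against 1.73 and 1.96 CPM in N2 (log2 1.83 ± 0.19 SE, edgeR adjusted p = 0.000569). These 4 were the F-box calls that were kept. The other 19 were lost without N2 replicate 1 (edgeR adjusted p = 0.0705 to 0.348) and 17 of them without N2 replicate 2 (0.0518 to 0.252). Leaving out WT replicate 1, 2 or 3 cost 9, 8 and 12 calls.

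The MATH and BATH domain genes went mostly the other way, with 6 of 62 tested members higher and 1 lower (11.3% called, against 4.07%). bath-1 had 11.5, 10.7 and 10.8 CPM in the WT line, against 4.86 and 4.99 CPM in N2 (log2 1.16 ± 0.11 SE, edgeR adjusted p = 0.000305), and this call was kept. math-38 was the member that fell, with 0.774, 1.27 and 0.842 CPM in the WT line and 3.13 and 4.28 CPM in N2 (log2 -1.94 ± 0.31 SE, edgeR adjusted p = 0.00725). Of 20 tested SKP1-related genes 4 were lower and none higher (20.0% called, against 4.07% of all tested genes): skr-12, skr-8, skr-13 and skr-14. skr-12 had 2.43, 1.99 and 2.60 CPM in the WT line, against 4.35 and 5.66 CPM in N2 (log2 -1.10 ± 0.21 SE, edgeR adjusted p = 0.0181). All calls of these 2 lists other than bath-1 were lost without N2 replicate 1 (edgeR adjusted p = 0.0520 to 0.335) and without N2 replicate 2 (0.0605 to 0.217). Leaving out WT replicate 2 or 3 cost 4 of the 7 MATH and BATH calls each, and all 4 and 3 of the skr calls. Of 32 proteasome subunits edgeR called none, with none at an unadjusted p under 0.05 and none called by DESeq2.

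Detoxification and fat metabolism held scattered calls. Flavin monooxygenases held 1 call among 5 tested members, and fatty acid desaturases and elongases 2 among 14 (20% and 14.3%, against 4.07% of all tested genes). Lipases held 1 among 15, acyl-CoA metabolism genes 2 among 46 and fatty acid binding genes 1 among 17 (6.67%, 4.35% and 5.88%). The flavin monooxygenase gene fmo-2, known for its induction by hypoxia and fasting, had 3.21, 0.675 and 3.79 CPM in the WT line, against 30.3 and 8.92 CPM in N2 (log2 -2.93 ± 0.61 SE, edgeR adjusted p = 0.0276). The groups did not overlap, but the 2 N2 libraries differed widely, and the call was lost without N2 replicate 1 (edgeR adjusted p = 0.395), WT replicate 1 (0.0505) or WT replicate 3 (0.0528). The stearoyl-CoA desaturase gene fat-7 had 4.76, 1.57 and 4.18 CPM in the WT line, against 19.8 and 14.4 CPM in N2 (log2 -2.28 ± 0.42 SE, edgeR adjusted p = 0.0146), and lost its call without N2 replicate 1 (0.191) or 2 (0.0605). WT replicate 2 was the lowest library for both genes.

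Of 59 tested UDP-glucuronosyltransferases, which conjugate xenobiotics, 4 rose and 2 fell (10.2% called, against 4.07%). ugt-64 had 69.4, 73.3 and 74.3 CPM in the WT line, against 40.0 and 42.3 CPM in N2 (log2 0.81 ± 0.06 SE, edgeR adjusted p = 7.6e-05) and was kept. ugt-25 fell, with 5.68, 4.98 and 7.37 CPM in the WT line, against 12.3 and 14.9 CPM in N2 (edgeR adjusted p = 0.00393). Without N2 replicate 1, 4 of the 6 ugt calls were lost (edgeR adjusted p = 0.198 to 0.364), and without N2 replicate 2 all but that of ugt-64 (0.0597 to 0.244). Leaving out WT replicate 1, 2 or 3 cost 2, 3 and 3 of them (edgeR adjusted p = 0.0511 to 0.126). Of 57 tested cytochromes P450, 1 rose and 3 fell (7.02% called, near the 4.07% of all tested genes). The one that rose was cyp-31A2, which takes part in making the eggshell's lipid layer, with 145, 144 and 143 CPM in the WT line and 106 and 105 CPM in N2 (log2 0.45 ± 0.05 SE, edgeR adjusted p = 0.00136). It was kept, and it has a close copy that may share its reads. The P450 genes that fell were cyp-13A2 (2.35-fold, edgeR adjusted p = 0.0144), cyp-37B1 (2.27-fold, 0.0444) and cyp-37A1 (1.42-fold, 0.0437). These 3 calls were lost without N2 replicate 1 (edgeR adjusted p = 0.229 to 0.425), and those of the cyp-37 genes also without any other library (0.0651 to 0.159). Among solute carriers swt-6, a sugar transporter of the SWEET family, fell by 1.53 ± 0.23 SE and slc-17.6 by 0.61 ± 0.09 SE on the log2 scale (edgeR adjusted p = 0.00500 and 0.00494), calls lost without N2 replicate 1 (0.0834 and 0.105). With hmit-1.1, above, swt-6 and slc-17.6 were the 3 calls among 43 tested solute carriers (6.98%, near the 4.07% of all tested genes). Of 183 tested nuclear hormone receptor genes, which encode ligand-regulated transcription factors, edgeR called none, with 25 at an unadjusted p under 0.05 and 2 called by DESeq2.

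Among 40 tested ABC transporters 3 were called (7.5%, near the 4.07% of all tested genes). haf-6 rose, while pgp-4 and pmp-4 fell 1.84-fold and 1.46-fold (edgeR adjusted p = 0.0302 and 0.0192). Among 37 glutathione S-transferases, which conjugate toxic compounds, gst-29 and gsto-1 rose (5.41% called, near the 4.07% of all tested genes). gst-29 had 1.59, 1.24 and 1.61 CPM in the WT line, against 0.327 and 0.268 CPM in N2 (edgeR adjusted p = 0.00397). Apart from haf-6 these calls were lost without N2 replicate 1 (edgeR adjusted p = 0.0622 to 0.265) or 2 (0.0628 to 0.221), and all but that of gst-29 also without WT replicate 2 or 3 (0.0534 to 0.0798). gsto-1 was lost without WT replicate 1 as well (0.0715). The chitinase-like gene cht-1, chosen after its values were seen, had 13.6, 13.9 and 13.9 CPM in the WT line, against 40.0 and 26.5 CPM in N2 (log2 -1.27 ± 0.14 SE, edgeR adjusted p = 0.00118, kept).

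Heat shock, redox and housekeeping lists are given beside the 4.07% of all tested genes that were called. Of 14 tested small heat shock genes sip-1 was the 1 call (7.14%, near that share). Of 22 chaperones none was called by edgeR or DESeq2, and none had an unadjusted p under 0.05. Among 10 superoxide dismutases, catalases and peroxiredoxins, edgeR called none, with 2 at an unadjusted p under 0.05 and none called by DESeq2. The same counts were 0, 2 and 1 for 16 SKN-1 and redox genes, 0, 7 and 1 for 49 respiratory chain subunits, and 0, 2 and 0 for 20 sirtuin and acetyltransferase genes. Of 79 cytosolic ribosomal protein genes, rpl-39 was the 1 call (1.27%). It had 632, 634 and 617 CPM in the WT line, against 425 and 422 CPM in N2 (edgeR adjusted p = 0.0095). It was lost without N2 replicate 1 (edgeR adjusted p = 0.150) or 2 (0.0958). The median log2 fold change of the ribosomal list was 0.00. ero-1, the oxidase that forms disulphide bonds in the endoplasmic reticulum, was the 1 call among 27 genes of the unfolded protein response (3.7%). It had 93.0, 93.5 and 92.7 CPM in the WT line, against 74.6 and 72.1 CPM in N2 (log2 0.34 ± 0.05 SE, edgeR adjusted p = 0.00393), and was lost without N2 replicate 2 (0.0678). Among 29 autophagy and lysosome genes 2 fell (6.9% called, near the 4.07% of all tested genes). epg-2, which links germline granules to autophagy in embryos, had 17.7, 16.5 and 14.1 CPM in the WT line, against 33.3 and 27.0 CPM in N2 (log2 -0.91 ± 0.13 SE, edgeR adjusted p = 0.00407). sqst-1, the worm p62, fell 1.26-fold (edgeR adjusted p = 0.0499). Both were lost without N2 replicate 1 (edgeR adjusted p = 0.0766 and 0.334), and sqst-1 also without N2 replicate 2 (0.224) or WT replicate 1 (0.103) or 2 (0.127).

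The intestine, muscle and neuronal marker lists had mostly positive fold changes, against 51.6% of all tested genes, and members of a list share their libraries. The groups did not overlap for 12 of 22 intestine, 6 of 27 muscle and 10 of 26 neuronal genes, against 39.6% of all tested genes. Of 22 tested intestine genes 3 rose (13.6% called, against 4.07% of all tested genes). The first was act-5, the actin of the microvilli, with 395, 427 and 369.8 CPM in the WT line and 285 and 300.1 CPM in N2 (log2 0.44 ± 0.07 SE, edgeR adjusted p = 0.00537). The others were the intermediate filament gene ifb-2 (0.40 ± 0.07 SE, edgeR adjusted p = 0.0151) and the phosphatase gene pho-1 (0.34 ± 0.08 SE, 0.0351). All 3 calls were lost without N2 replicate 1 (edgeR adjusted p = 0.105 to 0.285), and those of ifb-2 and pho-1 without N2 replicate 2 (0.117 and 0.175). pho-1 was lost without WT replicate 1 (0.0725) or 2 (0.0934) too. Of 27 body wall muscle genes edgeR called none (6 at an unadjusted p under 0.05, 1 called by DESeq2), and 25 had a positive fold change (median 0.19). Their summed level was 7973 to 8872 CPM in the WT line and 7112 and 7818 CPM in N2. Of 26 tested neuronal genes 2 rose (7.69% called, near the 4.07% of all tested genes), and 23 were positive (median 0.27). These were the touch neuron tubulin gene mec-12, with 10.4, 13.1 and 12.3 CPM in the WT line and 7.38 and 8.52 CPM in N2 (edgeR adjusted p = 0.0334), and the acetylcholine transporter gene unc-17, with 1.44, 1.27 and 1.58 CPM in the WT line and 0.748 and 0.491 CPM in N2 (edgeR adjusted p = 0.0483). Both neuronal calls were lost without either N2 library (edgeR adjusted p = 0.109 to 0.319) and without WT replicate 2 or 3 (0.0747 to 0.129), and unc-17 also without WT replicate 1 (0.0837).

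Of 59 tested neuropeptide genes edgeR called none (10 at an unadjusted p under 0.05, 1 called by DESeq2), and 54 were positive (median 0.41). Their summed level was 288 to 366 CPM in the WT line and 277.5 and 277.6 CPM in N2. flp-6 was among the nearest to the threshold, with 18.7, 23.2 and 23.3 CPM in the WT line, against 13.7 and 14.0 CPM in N2 (log2 0.65 ± 0.19 SE, edgeR adjusted p = 0.0885). Of the chemoreceptor families sr and str, 44 of 1629 genes passed the filter on low counts, so the rest were not tested. Among those 44, 2 rose and 4 fell (13.6% called, against 4.07%). The 4 were str-77, srw-34, sri-11 and srh-2, of which srw-34 had 0, 0 and 1 counts in the WT line and 16 and 11 in N2 (50.7-fold lower in the summed ratio, 95% exact Poisson interval 8.36 to 2076). srw-34 kept its call in the 4 fits that tested it, and without N2 replicate 1 it did not pass the filter on low counts. sri-40 rose, with 46.7, 51.4 and 46.2 CPM in the WT line, against 34.5 and 31.0 CPM in N2 (log2 0.55 ± 0.08 SE, edgeR adjusted p = 0.00542), and was lost without N2 replicate 2 (0.0795). srsx-34 also rose (log2 0.89 ± 0.20 SE, edgeR adjusted p = 0.0367). The calls of srsx-34, sri-11 and srh-2 were lost without N2 replicate 1 (edgeR adjusted p = 0.327 to 0.372) or 2 (0.0848 to 0.111), that of sri-11 also without WT replicate 1 or 3, that of srh-2 without WT replicate 1 or 2, and that of srsx-34 without WT replicate 2 or 3 (0.0511 to 0.107). Of 55 tested hedgehog-related and patched-related genes, secreted or membrane proteins of the epidermis and its derivatives, 3 rose and 1 fell (7.27% called, near the 4.07% of all tested genes). grd-5 had 62.7, 72.3 and 63.0 CPM in the WT line, against 36.7 and 39.3 CPM in N2 (log2 0.79 ± 0.10 SE, edgeR adjusted p = 0.00235), and grd-3 had 62.2, 66.3 and 62.9 CPM in the WT line, against 36.4 and 41.9 CPM in N2 (edgeR adjusted p = 0.00356). Both were lost without N2 replicate 1 (edgeR adjusted p = 0.0622 and 0.0687). grl-14 fell by 2.16 ± 0.31 SE on the log2 scale (edgeR adjusted p = 0.00407) and was lost without N2 replicate 2 (0.0649). grd-10 rose by 1.64 ± 0.32 SE (edgeR adjusted p = 0.0203) and was lost without N2 replicate 1 (0.242) or 2 (0.0540).

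Lists of the germline and its products are given beside the 4.07% of all tested genes that were called. All 6 vitellogenin genes, which encode yolk, had negative fold changes (median -0.13). None was called by edgeR or DESeq2, and none had an unadjusted p under 0.05. Their summed level was 86807 to 90475 CPM in the WT line and 94410 and 98017 CPM in N2. The 29 tested major sperm protein genes were all negative (median -0.60), and edgeR called none (1 at an unadjusted p under 0.05, none called by DESeq2). The libraries of the groups did not overlap for 1 of the 29, against 39.6% of all tested genes. Without WT replicate 1 the median was -1.19 and 2 were called, and without N2 replicate 1 the median was -0.24. Their summed level ranged from 28.9 to 99.6 CPM in the WT line and was 107 and 71.2 CPM in N2, so the groups overlapped. These genes are near-copies of each other, and their reads may not be separable.

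Among 30 oocyte and early embryo genes the caveolin gene cav-1 was the 1 call (3.33%, near the 4.07% of all tested genes). It fell, with 31.0, 31.9 and 32.0 CPM in the WT line and 65.2 and 51.3 CPM in N2 (log2 -0.88 ± 0.11 SE, edgeR adjusted p = 0.00173), and was kept. Of 29 germline and meiosis genes the 1 call (3.45%, near the same share) was meg-1, a germ granule gene, which fell 1.20-fold (edgeR adjusted p = 0.0321). Leaving out any of the 5 libraries ended that call (0.0623 to 0.242). The linker histone gene his-24 had 26.5, 27.4 and 24.4 CPM in the WT line, against 68.2 and 42.9 CPM in N2 (log2 -1.09 ± 0.16 SE, edgeR adjusted p = 0.00519), and was kept. Of 50 tested histone genes 2 rose and 2 fell (8% called, against 4.07%). Apart from his-24 these were his-53 and his-19, which rose, and the linker histone gene hil-3, which fell. Their 3 calls were lost when either N2 library was left out (edgeR adjusted p = 0.100 to 0.389), those of his-19 and hil-3 also without WT replicate 1 (0.0525 and 0.102), those of his-53 and his-19 without WT replicate 2 (0.0654 and 0.0782), and that of hil-3 without WT replicate 3 (0.133). Histone genes have near-identical copies, so his-53 and his-19 count as uncertain. Of 6 tested male-specific genes none was called by edgeR or DESeq2, and none had an unadjusted p under 0.05. Chosen after their values were seen, the dosage compensation genes sdc-3 and sdc-2 were also lower. sdc-3 had 33.6, 33.6 and 30.5 CPM in the WT line, against 47.8 and 47.1 CPM in N2 (log2 -0.54 ± 0.07 SE, edgeR adjusted p = 0.0024, kept). sdc-2 had 10.4, 10.9 and 10.4 CPM in the WT line, against 18.3 and 14.7 CPM in N2 (edgeR adjusted p = 0.0126), and lost its call without N2 replicate 1 (0.193).

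Called genes were spread over the chromosomes, from 2.65% of tested genes on III and 2.93% on X to 4.75% on V and 5.08% on IV. Near the deleted and marker genes the shares were close to the background of 4.07%. Within 500 kb of daf-16, 8 of 164 tested genes were called (4.88%), 2 higher and 6 lower, and within 500 kb of rol-6 the count was 11 of 201 (5.47%), 5 higher and 6 lower, with daf-16 and rol-6 themselves left out of the counts. There were 12 runs of at least 3 tested neighbours called in 1 direction, which held 41 genes, 7 of the runs lower and 5 higher. Gene positions follow the Ensembl gene models on WBcel235.

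Within 500 kb of rol-6, F35C11.2 had 0.221, 0.150 and 0.140 CPM in the WT line, against 2.62 and 2.63 CPM in N2 (log2 -3.91 ± 0.28 SE, edgeR adjusted p = 5.85e-05). M05D6.3 had 0.295, 0.112 and 0.176 CPM in the WT line, against 2.20 and 1.92 CPM in N2 (log2 -3.37 ± 0.38 SE, edgeR adjusted p = 0.00113). Both calls were kept. Within 500 kb of daf-16, C35E7.5 had 23.1, 21.1 and 22.7 CPM in the WT line, against 46.6 and 38.0 CPM in N2 (edgeR adjusted p = 0.00252), and was lost without N2 replicate 1 (0.0516). lst-1, which keeps germline stem cells in their niche, had 131, 135 and 127 CPM in the WT line, against 96.9 and 103 CPM in N2 (edgeR adjusted p = 0.0151), and was lost without N2 replicate 1 (0.170) or 2 (0.0783). These 4 genes were chosen after their values were seen.

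The run nearest to daf-16 lies on chromosome I from 10300568 to 10330400 and holds Y106G6G.2, Y106G6G.4, dlc-6 and Y106G6G.1, all lower. Y106G6G.4 had 1.03, 0.675 and 0.527 CPM in the WT line, against 13.6 and 12.8 CPM in N2 (log2 -4.14 ± 0.23 SE, edgeR adjusted p = 5.43e-06). Y106G6G.4 and dlc-6 lie inside the span of Y106G6G.2, dlc-6 on the opposite strand, and whether strand was used in counting is not known, so their reads may overlap. On chromosome V from 16518183 to 16530365, F36D3.7, srw-34, F36D3.15 and F36D3.16 were all lower, each with under 0.2 CPM in every WT library. On V from 17637982 to 17655281 the run is fbxa-191, fbxa-192 and fbxa-193, and on chromosome I from 5486719 to 5490631 it is C09D4.6, C09D4.9 and C09D4.3. C09D4.3 had 31, 9 and 5 counts in the WT line, against 199 and 208 in N2 (log2 -4.07 ± 0.45 SE, edgeR adjusted p = 0.00111, kept). Higher runs included col-167 to col-170 on chromosome X and col-144, col-145 and col-10 on V, and the remaining runs held mixed families.

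The levels of several of these genes in 2KR, the line with the same deletion and marker, were close to those in the WT line. Both lines were set against the same N2 libraries, so the values are given side by side with no test of likeness. The levels of rol-6 and daf-16 were not close. rol-6 averaged 146 ± 21.2 CPM in 2KR (SD, n = 3), above the 57.8 to 73.1 CPM of the WT line. daf-16 averaged 246 ± 38.6 CPM in 2KR (SD, n = 3), between the 399.9 to 452 CPM of the WT line and the 145 and 159.6 CPM of N2. Y69A2AR.1 averaged 88.2 ± 2.46 CPM in 2KR (SD, n = 3), beside its 88.0 to 91.2 CPM in the WT line. pmk-3 averaged 10.1 ± 0.880 CPM, Y106G6G.2 0.769 ± 0.166 CPM and haf-6 37.9 ± 1.83 CPM in 2KR (SD, n = 3). Y73F8A.5 was different: it averaged 1.01 ± 0.181 CPM in 2KR (SD, n = 3), near the 0.580 and 0.748 CPM of N2, while the WT libraries stood at 12.9 to 19.2 CPM. fbxc-43 also lay nearer to N2, at 2.93 ± 0.382 CPM in 2KR (SD, n = 3). fbxa-192 lay between, at 8.52 ± 0.347 CPM, where the WT line had 3.07 to 5.05 CPM and N2 24.4 and 24.8 CPM. col-125 averaged 5.30 ± 1.77 CPM and col-167 11.9 ± 1.23 CPM in 2KR (SD, n = 3), within the range of the WT libraries.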

How the data were processed

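RNA-seq libraries were made from total RNA of whole worms with a directional kit, per the labels' protocols. Reads were trimmed with Trimmomatic 0.32 and aligned with TopHat2 2.1.0, and DESeq2 1.14.1 was used, per the submitters' processing notes. The sources used here do not name the build, the counter or its use of strand. The deposited raw counts, 47084 genes per library, were joined by gene identifier. The authors' deposited CPM column, per the file headers scaled per library, was not used, and the CPM printed here were computed from the counts. Of the genes, 349 had no name in the files and 46474 had a position in the Ensembl annotation of WBcel235. The 3 files of the 4KR line were not used, because their counts do not go with their gene names.

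The 8 libraries of the WT line, 2KR and N2 were fitted with edgeR 4.0.16 and limma 3.58.1 in R 4.3.3 (TMM scaling, filterByExpr by group, quasi-likelihood test, group as the only term), and the contrast was the WT line minus N2. The SE was derived from the test statistic. DESeq2 1.42.0 gave an alternative, and tables and plots used Python 3.11.15, NumPy 2.4.6, pandas 2.3.3, SciPy 1.17.1 and matplotlib 3.10.9. The script was tested on simulated counts with 200 changed genes. Intervals of count ratios are exact at 95% and cover counting error only, as do the floors of 3 counts.

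Counts of 64 gene lists, with 2251 tested genes, were described beside those over all genes. After their members' values were seen, the chemoreceptor list was corrected to hold the sr and str receptor families without other genes whose names begin with sr, and 4 genes of another or unclear role were left out of the ribosome biogenesis list. The groups, the lists and the rule for named genes were chosen with earlier results of these data known, and 9 list names did not match. Named were daf-16, rol-6, the 12 highest and 12 lowest calls whose log2 CPM averaged 2 or more and whose libraries did not overlap, all members of the DAF-16, rol-6 partner, osmolyte and epidermal peptide lists, and up to 4 called, or 2 uncalled, members of each other list. The remaining called list members, the genes in the runs of neighbours or within 500 kb of daf-16 or rol-6, and the genes so marked in the text were added after their values were seen. Alternatives were another scaling, no filter, DESeq2, the WT line and N2 alone, replicate blocks, a fold threshold and leaving out each library. A planned description of promoter motifs was not run, since no genome sequence was used here.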

Additional observations from a re-analysis of the deposited data

How the results depend on the processing

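No called gene that was described changed its direction under any alternative that tested it. The 584 calls numbered 573 with DESeq2's size factors, 669 in DESeq2 (518 shared) and 564 with the WT and N2 libraries alone (484 shared). They numbered 911 without the filter on low counts and 238 with a 2-fold threshold, and between 101 and 464 when 1 library was left out. Of the 101 and 163 genes called without N2 replicate 1 and 2, 99 and 155 were among the 584. The 148 called list members became 257 without the filter and 27 to 124 with 1 library left out, and the 25 genes named by the rule of highest and lowest and as transgene genes became 17 to 24. The DAF-16-activated list had 3 to 5 calls and the DAF-16-repressed list 0 to 5 with 1 library left out. The log2 fold change of daf-16 lay between 1.36, with the repeat mark as a block, and 1.53 over all these alternatives, and that of rol-6 between 8.90 and 9.39.

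The WT line and N2 share replicate numbers and repeat marks, but the labels do not say that either marks a shared day or batch. The deviations of paired libraries correlated at 0.264 and 0.0937 by number and at 0.264 and 0.186 by mark, over 2 pairs each. With the replicate number as a replicate block 1794 genes were called, 437 of them in the lists and 10 in the DAF-16-activated list, 5 in each direction. With the repeat mark as the block the counts were 1455, 332 and again 10, 5 in each direction, and the DAF-16-repressed list had 7. With the mark as the block and the WT and N2 libraries alone, a setting added after seeing the data, 2312 genes were called. The blocked fits held all 584 calls with 8 libraries and 583 with 5. The causes of these shifts were not tested. The N2 mean rests on at most 2 libraries in each fit, and genes at under about 1 CPM rest on a handful of reads. Small differences, most of all in such genes, may have been missed at this depth.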

Other observations

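Some gene groups that were not on the original lists drew attention after their values were seen, so their counts are descriptions. Of 35 tested ribosome biogenesis genes, whose products make or process ribosomal RNA, 8 were called (22.9%, against 4.07% of all tested genes) and all 8 were lower in the WT line, by small amounts. The list's median log2 fold change was -0.22, and 32 members were negative. All 8 calls were lost without N2 replicate 1 (edgeR adjusted p = 0.136 to 0.319), 7 without N2 replicate 2 (0.0628 to 0.216), and 2, 4 and 4 without WT replicates 1, 2 and 3 (up to 0.136). rrbs-1 had 99.2, 98.6 and 103 CPM in the WT line, against 129.6 and 126 CPM in N2 (log2 -0.35 ± 0.06 SE, edgeR adjusted p = 0.00638). The ribosomal protein genes themselves had a median of 0.00.

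Of 26 tested sdz genes, named as zygotic targets of the embryonic factor SKN-1, 5 were lower and 1 was higher (23.1% called, against 4.07%), and 23 were negative, with a median of -0.75. All 6 calls were lost without N2 replicate 1 (edgeR adjusted p = 0.0625 to 0.272), 3 without N2 replicate 2 (0.0653 to 0.0978), and 1 and 2 without WT replicates 2 and 3 (0.0512 to 0.0659). The one that was higher, sdz-24, averaged 22.3 ± 10.1 CPM in the WT line (SD, n = 3), against 6.18 ± 0.280 CPM in N2 (SD, n = 2) (log2 1.85 ± 0.32 SE, edgeR adjusted p = 0.0111). sdz-30 fell by 1.24 ± 0.17 SE on the log2 scale (edgeR adjusted p = 0.00354). WT replicate 2 was the highest library for sdz-24, as for most of the collagens.

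Of 11 tested intermediate filament genes 3 were higher in the WT line (27.3% called, against 4.07% of all tested genes). All 3 calls were lost without N2 replicate 1 (edgeR adjusted p = 0.0752 to 0.209) or 2 (0.0806 to 0.117). ifp-1 stood at 6.04 ± 1.59 CPM in the WT line (SD, n = 3) and 2.26 ± 0.236 CPM in N2 (SD, n = 2) (edgeR adjusted p = 0.00588). Of 12 acid phosphatases 2 were higher and 2 lower (33.3% called, against 4.07%). All 4 calls were lost without N2 replicate 1 (edgeR adjusted p = 0.0751 to 0.414), 3 without N2 replicate 2 (0.0605 to 0.175), and 2 without each WT library (0.0570 to 0.105). pho-11 stood at 199, 217 and 224 CPM in the WT line and 149 and 145 CPM in N2 (edgeR adjusted p = 0.00407). Of 17 tested guanylyl cyclases of the gcy family 2 were called (11.8%, against 4.07%), and both were lower. gcy-4 and gcy-22, known from a salt-sensing neuron, fell by 3.87 ± 0.51 SE and 2.28 ± 0.34 SE on the log2 scale (edgeR adjusted p = 0.00297 and 0.00486). The call of gcy-22 was lost without N2 replicate 1 (edgeR adjusted p = 0.0751), and that of gcy-4 was kept throughout.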
